A study of Mus musculus with 12 samples.

Results

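The genes described here encode protein tyrosine phosphatases (PTPs) of the Ptpn (non-receptor type) and Ptpr (receptor type) families, and their acetylated regulatory regions were followed in mouse microglia. Members were all genes whose name in the deposited region table begins with Ptpn and a digit or with Ptpr and a letter. The name rule gave 35 of 18207 genes, and 328 of the 104981 regions have 1 of them as the nearest gene. The rule also takes Ptprcap, which encodes a protein bound to CD45 and no phosphatase. It had 1 region, with a mean of 3.91 tags, and no IL-33 comparison. Histone H3 acetylated at lysine 27 (H3K27ac), a mark of active promoters and enhancers, had been profiled by chromatin immunoprecipitation sequencing in microglia of the cortex, sorted from mice at postnatal day 30. The mice had been given interleukin-33 (IL-33), an alarmin released by damaged or stressed cells, or vehicle by injection into a cerebral ventricle, and were killed 4 h later. The labels name no strain, genotype or transgene.

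Tyrosine phosphatases remove phosphate from tyrosine and so oppose or, at inhibitory sites, release tyrosine kinases. The receptor type spans the membrane, often with adhesion-like outer domains, while the non-receptor type is cytosolic or anchored to inner membranes. In macrophages and microglia, CD45 (Ptprc) and CD148 (Ptprj) act on the inhibitory tyrosine of Src family kinases, SHP-1 (Ptpn6) is recruited by inhibitory receptors, and PTP1B (Ptpn1) and TC-PTP (Ptpn2) act on Janus kinases.

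The 8 H3K27ac libraries came from 4 female mice (mice 3, 4, 7 and 8) and 4 male mice (mice 1, 2, 5 and 6), 1 library per mouse. The labels give the sex of each mouse but not which mice received IL-33, so IL-33 and vehicle are compared only through the authors' deposited table. Female libraries held 2155209 to 4133042 tags and male libraries 5160915 to 10019606, which left a median of 2 to 4 reads per 500 bp region in female and of 5 to 10 in male libraries. Levels below are tags per 10000000 tags of a library in a 500 bp region. As a check of the labelled cell type, the summed start-site tags of 8 microglial marker genes were 1620 to 2299 in female and 1309 to 1678 in male libraries. For neurons, 3 of 6 markers had a start-site region and summed to 0 in female libraries and to at most 8.02 in male ones. Astrocyte markers (3 of 5 with a region) summed to 65.0 to 92.0 tags in female and 31.9 to 64.0 in male libraries, and oligodendrocyte-lineage markers (4 of 6) to 26.6 to 111.4 in female and 17.0 to 66.1 in male libraries. Endothelial markers (2 of 3) summed to 44.0 to 97.6 tags in female and 50.4 to 69.2 in male libraries, T and B cell markers (1 of 5) to 0 in female and 1.05 to 3.44 in male libraries, and granulocyte and monocyte markers (1 of 4) to at most 4.64 in female and 1.15 in male libraries. In such bulk libraries, fewer cells of a type and less signal per cell cannot be told apart.

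The phosphatase genes differed widely in acetylation at their start sites. Of the 35 members, 29 had a region within 1000 bp of a transcription start site (TSS), and 15 of these lay above the median of all such genes (40.3 tags, over 13158 genes). All such genes also varied widely, with quartiles of 8.37 and 99.6 tags. The most marked member was Ptprj, with a mean of 351.9 tags over all 8 libraries in its region 876 bp inside the gene. That level lay above 99.2% of the 13158 genes with a start-site region. That region held 437, 537, 332 and 278 tags in female mice 3, 4, 7 and 8, and 438, 368, 216 and 209 tags in male mice 1, 2, 5 and 6. Levels varied about 2-fold within each sex, and the sexes overlapped. Ptpn2 followed with 277.2 tags, then Ptpre with 185.6, Ptpn1 with 171.1 and Ptprc with 131.4. Ptpre encodes a receptor-type enzyme that also exists in a cytosolic form. By sex, Ptpn2 averaged 252 ± 35.5 tags in female and 303 ± 49.4 tags in male libraries, and Ptprc 144 ± 50.5 tags in female and 119 ± 38.7 tags in male libraries (SD, n = 4 each). Next in order came Ptpro with 106.3 tags, Ptpn11 (SHP-2, a positive regulator of the Ras pathway) with 90.0, Ptpra (an activator of Src and Fyn) with 86.4 and Ptpn12 (PTP-PEST) with 75.5. Ptpn23, a scaffold of endosomal sorting, had 71.0 tags, Ptpn6 had 63.7 and Ptprm, an adhesion-type receptor, had 62.0. Along this order of 12, the step between neighbours exceeded its own spread over libraries only from Ptpn2 to Ptpre and from Ptpn1 to Ptprc, each higher in 8 of 8 libraries. The other 9 steps did not exceed it.

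A further 12 of the 29 members had start-site levels below 10 tags, where the lower quartile of all 13158 genes was 8.37 tags. Among them were Ptpn14 with 0.37, Ptprf with 0.39, Ptprg with 1.95 and Ptpru with 4.89. Ptpn3 and Ptprn2 had a start-site region without a single read in any of the 8 libraries.

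**Figure D1:**
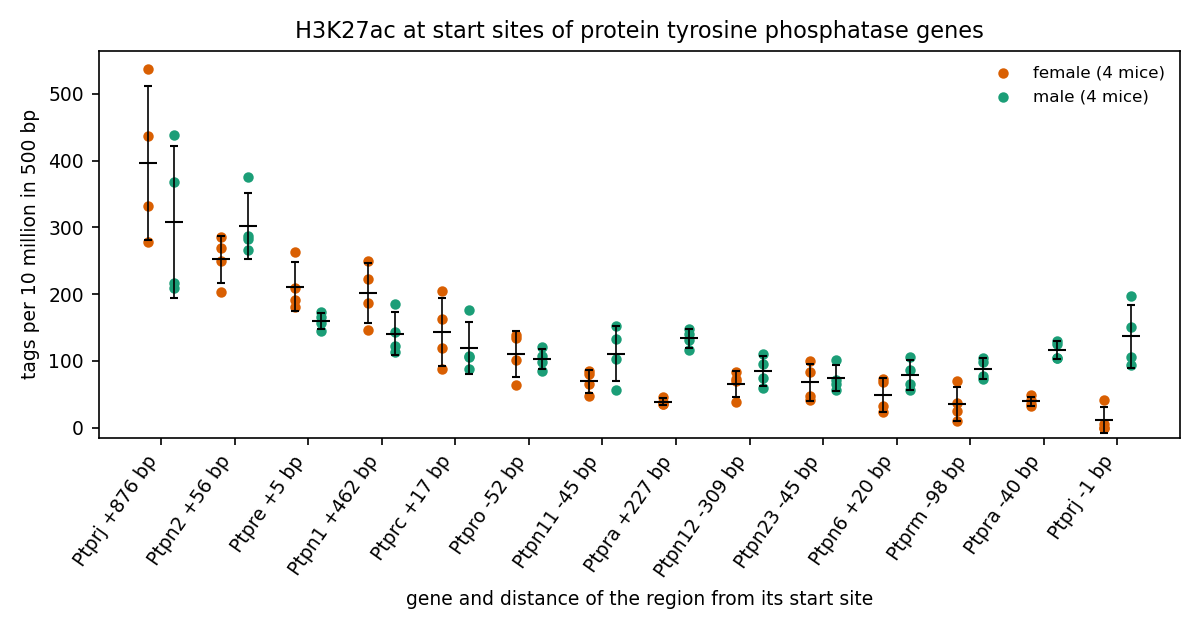
H3K27ac level (tags per 10000000 in 500 bp) in the start-site regions of the 12 members with the most tags, plus the second start-site regions of Ptpra and Ptprj that differed between the sexes; points are libraries, with female mice left of male mice, and bars give the mean and SD (n = 4 each). The Ptprj region at +876 bp reaches 537 tags, while the Ptprj region at -1 bp lies at 0 to 41.1 tags in female and 93.3 to 197 tags in male libraries.

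The start-site sequences show how unlike these promoters are. Those of Ptpra and the outer Ptprj start are shown because the regions over them differed between the sexes, as described further on. The region at the inner Ptprj start was not called, nor was the region over the Ptprc window (log2 difference 0.24, limma adjusted p = 0.792). Each window runs from 250 bases before to 50 bases after a RefSeq start (GRCm38.p6), 5′ to 3′ on the strand of the gene, and capitals mark CG dinucleotides, the only motif searched, which reads CG on both strands.
Ptprj, outer start, chr2:90580546-90580845, minus strand: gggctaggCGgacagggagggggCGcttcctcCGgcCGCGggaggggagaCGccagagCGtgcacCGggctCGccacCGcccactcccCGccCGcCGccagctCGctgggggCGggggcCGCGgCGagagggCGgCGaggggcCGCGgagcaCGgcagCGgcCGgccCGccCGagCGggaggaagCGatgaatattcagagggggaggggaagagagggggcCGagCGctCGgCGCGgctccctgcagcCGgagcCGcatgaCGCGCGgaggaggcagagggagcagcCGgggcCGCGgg
Ptprj, inner start, chr2:90479125-90479424, minus strand: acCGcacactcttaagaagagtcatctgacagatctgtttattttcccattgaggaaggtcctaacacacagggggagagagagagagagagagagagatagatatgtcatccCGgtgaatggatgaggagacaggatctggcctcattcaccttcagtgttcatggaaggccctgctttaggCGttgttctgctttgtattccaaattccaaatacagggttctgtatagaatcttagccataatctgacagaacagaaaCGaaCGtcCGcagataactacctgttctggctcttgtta
Ptpra, chr2:130450028-130450327, plus strand: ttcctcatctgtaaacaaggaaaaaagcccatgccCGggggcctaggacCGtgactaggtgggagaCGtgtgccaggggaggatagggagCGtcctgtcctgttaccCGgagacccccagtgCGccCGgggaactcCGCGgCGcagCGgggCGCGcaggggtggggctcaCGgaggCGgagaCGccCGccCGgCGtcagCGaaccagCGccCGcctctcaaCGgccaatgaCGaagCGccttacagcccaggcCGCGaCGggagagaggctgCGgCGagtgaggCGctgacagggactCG
Ptprc, chr1:138175077-138175376, minus strand: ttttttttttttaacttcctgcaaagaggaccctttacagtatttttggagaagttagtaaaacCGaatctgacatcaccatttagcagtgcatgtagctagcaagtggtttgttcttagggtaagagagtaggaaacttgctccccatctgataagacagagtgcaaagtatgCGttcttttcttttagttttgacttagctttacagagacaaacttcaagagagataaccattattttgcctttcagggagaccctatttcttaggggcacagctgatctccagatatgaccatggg
The outer Ptprj window is 79.3% G and C and holds 42 CG, and 3.03% of the 32851 RefSeq windows hold as many. The Ptpra window holds 32 CG, a number reached by 9.52% of windows, and the Ptprc window holds 2, reached by 85.9%. The inner Ptprj window, for a shorter transcript, holds 6 CG. At least 1 CG was found in 94.6% of all windows, and the median number was 18 over the 42 windows of 28 members with an entry and 7 over all windows. A check of the sex differences below against base composition is void, because only 13 of the 17 members with a tested start-site region (76.5%) have a window at it, and 80% were needed. Windows with many CG also lay at regions that were not called by limma. Among them were Ptpn1 with 47 CG (adjusted p = 0.0903), Ptprm with 43 (0.157), Ptpn11 with 37 (0.498) and Ptpn9 with 32 (0.836).

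By the authors' deposited table, distal regions of several phosphatase genes carried more acetylation with IL-33. Of the 26 rises, 18 were nearest to receptor-type genes, which held 89 of the 150 regions with an adjusted p. Ptprj alone had 11 of these 18. The authors' deposited table compares IL-33 with vehicle at regions no nearer than 3001 bp to a TSS (16 regions have no TSS), and 207 of the 328 member regions are in it. For 150 of these, at 16 genes, an adjusted p is listed in the authors' deposited table. They are the tested regions here, and a region counts as risen or fallen at an adjusted p under 0.05. In the authors' deposited table, 26 of the 150 tested member regions rose (17.3%), where 10.2% of all 40352 tested regions rose, and 8 fell (5.33%), where 7.99% of all did. The other 116 passed no threshold. The median log2 fold change of the tested member regions in the authors' deposited table was 0.32, beside -0.01 over all tested regions, and 63.3% of member regions lay above 0, beside 49.3% of all. Rises of at least 2 log2 units made up 5.33% of member regions in the authors' deposited table and 2.6% of all tested regions.

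Ptprj carried much of this. Without it, a choice made after seeing the data, 15 of 113 tested regions (13.3%) rose in the authors' deposited table, and without Ptprj and Ptpn1 10 of 74 (13.5%). By gene, the authors' deposited table lists 7 of the 16 tested members with a rise, 3 with a fall and 1, Ptpn1, with both. Over all 7838 genes tested there, 19.4% had a rise, 20.9% a fall and 3.33% both. Genes with many regions are called more often, since a rise was listed in the authors' deposited table for 79.6% of the 113 genes with at least 30 tested regions and a fall for 69.0%. Receptor-type genes had 18 rises and 0 falls among 89 tested regions in the authors' deposited table, and non-receptor genes had 8 rises and 8 falls among 61. Ptprm regions at -1.40 (adjusted p = 0.0541) and -0.93 (adjusted p = 0.0530) in the authors' deposited table narrowly missed being called as falls. Ptprj alone had 11 of the 18 receptor-type rises and 37 of the 89 tested regions. The difference between these classes was not tested.

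**Figure D2:**
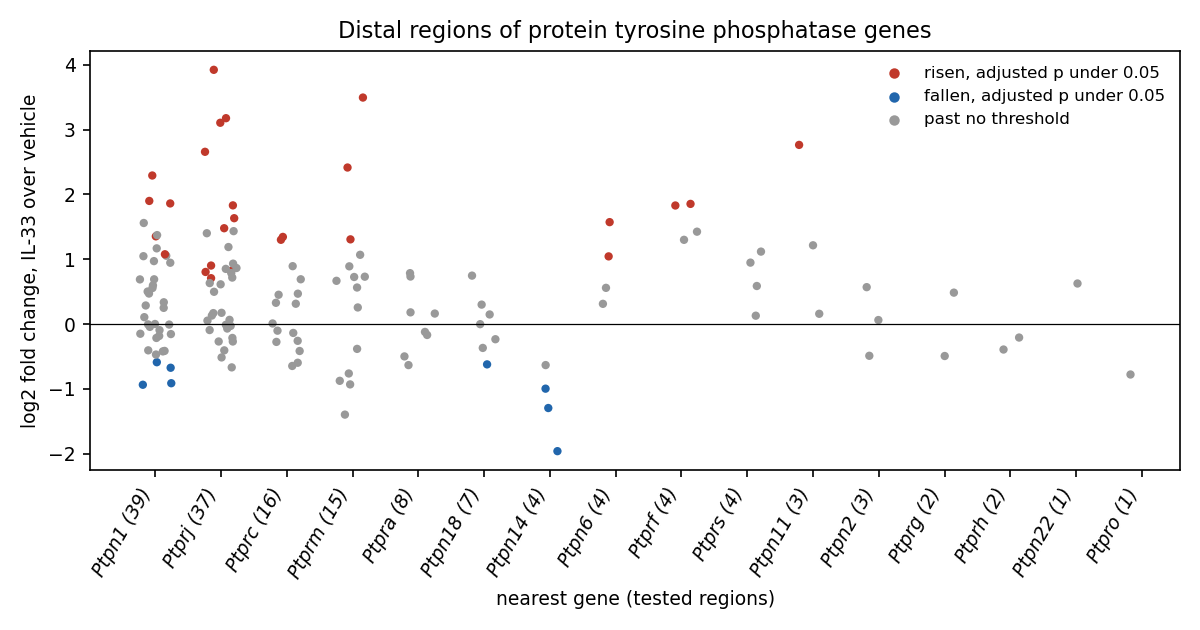
Each point is a tested distal region of the authors' deposited table, placed by its nearest phosphatase gene (number of tested regions in parentheses) and its log2 fold change of IL-33 over vehicle. Ptprj has 11 of the 26 risen regions, up to 3.92, and Ptpn14 has 3 of the 8 fallen ones, down to -1.96.

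Ptprj, which encodes CD148, had 61 regions, more than any other member, and 11 of its 37 tested regions rose while none fell in the authors' deposited table. All 11 lie in intron 1 of 23 of the long transcript, in 3 stretches. The strongest region (chromosome 2, 90543186 to 90543686, 37.2 kb inside the outer start) held 114, 179, 5.57 and 9.28 tags in female mice 3, 4, 7 and 8, and 114, 126, 3.15 and 9.69 tags in male mice 1, 2, 5 and 6. Within each sex, then, 2 libraries were high and 2 low, and the ranges of the sexes overlapped. The authors' deposited table gives the region group values of 6.05 for IL-33 and 2.06 for vehicle (log2 tags) and a log2 fold change of 3.92 at an SE of 0.40 (adjusted p = 1.998e-19). With 3 further tested regions it forms a stretch from 90542554 to 90546267, and all 4 rose by 2.66 to 3.92 log2 units in the authors' deposited table.

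A second stretch lies close to the outer start, at 90573587 to 90576667 and 4.2 to 6.8 kb from it. The authors' deposited table lists 3 of its 4 tested regions as risen, by 0.80 to 1.63 log2 units. The 3 risen regions already carried signal with vehicle, with group values of 5.91 to 6.56 for IL-33 and 4.68 to 5.08 for vehicle in the authors' deposited table. The remaining stretch, 90503958 to 90515417, is nearer the inner start, 25.03 to 35.99 kb before it. There 4 of 5 tested regions rose by 0.71 to 1.83 log2 units in the authors' deposited table. The 26 uncalled Ptprj regions ranged from -0.67 to 1.43 in the authors' deposited table, 16 of them above 0, and the median of all 37 was 0.71. The promoter itself was not compared there.

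**Figure D3:**
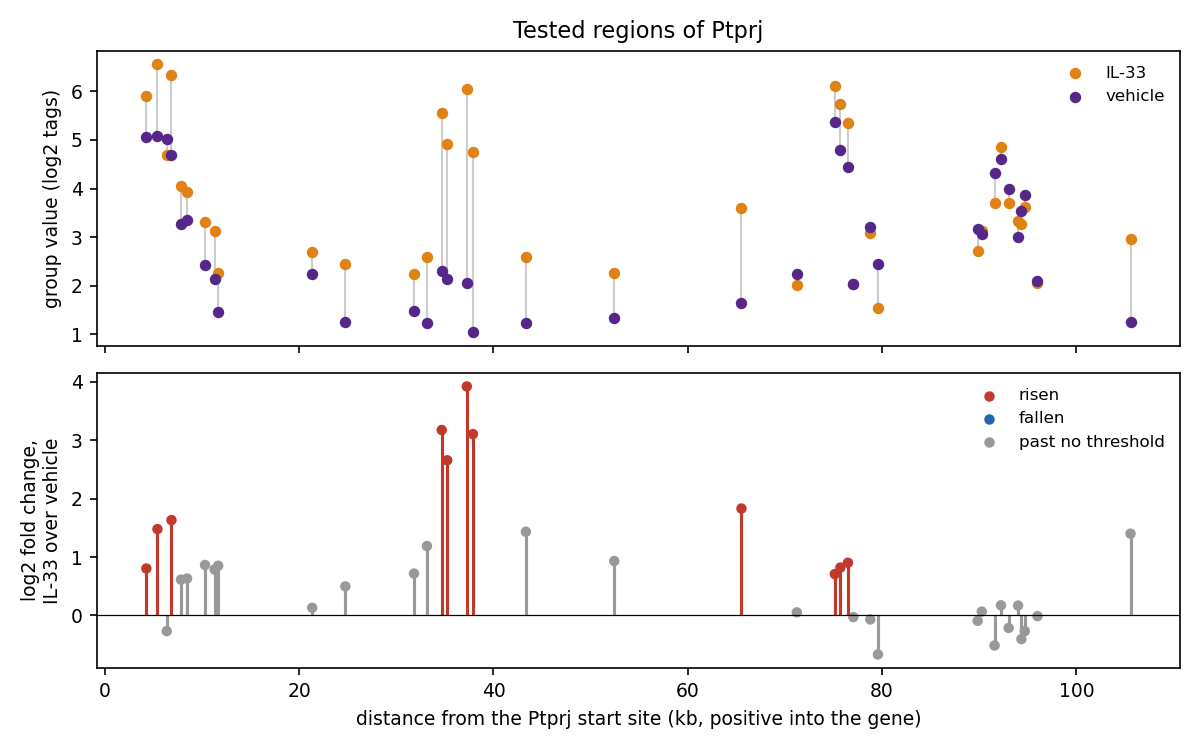
Group values (log2 tags, upper panel) and log2 fold changes of IL-33 over vehicle (lower panel) from the authors' deposited table for the 37 tested Ptprj regions, by distance in kb from the outer start site into the gene. The 4 risen regions at 34.6 to 37.8 kb reach 2.66 to 3.92, and no tested region fell.

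Ptprm had the second largest rise among the members. Its region in intron 1 of 32 (chromosome 17, 67346877 to 67347377, 7.3 kb from the TSS) held 103, 41.1, 0 and 0 tags in female mice 3, 4, 7 and 8, and 43.9, 44.7, 2.10 and 5.81 tags in male mice 1, 2, 5 and 6. High and low libraries again occurred in both sexes. The authors' deposited table gives 4.80 for IL-33 and 0.81 for vehicle, with a log2 fold change of 3.50 at an SE of 0.53 (adjusted p = 5.66e-09). An overlapping region, which shares reads with it, rose by 2.42 in the authors' deposited table. Another region 25.1 kb from the TSS rose by 1.31 in the authors' deposited table, although it was listed only in the vehicle peak set. The other 12 of 15 tested Ptprm regions passed no threshold in the authors' deposited table and ran from -1.40 to 1.07. Their smallest adjusted p was 0.0530, at a log2 fold change of -0.93.

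Ptprc, the gene of CD45, had 2 rises among 16 tested regions in the authors' deposited table, side by side in intron 2 of 28. The region with the smaller adjusted p (chromosome 1, 138158900 to 138159400) held 55.8, 77.4, 30.7 and 41.8 tags in female mice 3, 4, 7 and 8, and 83.8, 48.1, 13.6 and 25.2 tags in male mice 1, 2, 5 and 6. Its group values in the authors' deposited table were 5.05 for IL-33 and 3.78 for vehicle, or a log2 fold change of 1.30 at an SE of 0.36 (adjusted p = 0.00335). Its neighbour rose by 1.35 in the authors' deposited table. Ptprf, which encodes the adhesion-type phosphatase LAR, had 2 rises among 4 tested regions in the authors' deposited table, of 1.83 and 1.85 log2 units. Both lie upstream of the gene at low signal, and the stronger call had 14.7, 0, 0 and 4.64 tags in female mice 3, 4, 7 and 8 and 17.96, 26.34, 0 and 3.88 tags in male mice 1, 2, 5 and 6. The authors' deposited table gives that region 2.62 for IL-33 and 0.82 for vehicle (SE 0.66, adjusted p = 0.0306). The start-site region of Ptprf was nearly without reads, and assignment to a gene is by position only.

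Among the non-receptor genes, Ptpn6 had the clearest rise. Its region in intron 3 of 15 (chromosome 6, 124729757 to 124730257, 3.1 kb from the TSS) held 226, 399, 97.6 and 97.4 tags in female mice 3, 4, 7 and 8, and 244, 170, 76.5 and 63.9 tags in male mice 1, 2, 5 and 6. Every library carried the region well above 0. The authors' deposited table gives 6.96 for IL-33 and 5.38 for vehicle, or a log2 fold change of 1.57 at an SE of 0.21 (adjusted p = 2.70e-11). The overlapping region beside it rose by 1.04 in the authors' deposited table, and the other 2 tested Ptpn6 regions passed no threshold. For Ptpn11 the authors' deposited table lists 1 rise among 3 tested regions, of 2.76 log2 units at an SE of 0.58 (adjusted p = 5.54e-05), with 3.88 for IL-33 and 0.83 for vehicle. That region (chromosome 5, 121197288 to 121197788) lies between Ptpn11 and the ribosomal protein gene Rpl6. It held 23.5, 38.7, 2.79 and 0 tags in female mice 3, 4, 7 and 8, and 35.9, 17.2, 2.10 and 1.94 tags in male mice 1, 2, 5 and 6.

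Ptpn1, which encodes PTP1B, a phosphatase of the insulin and leptin receptors and of JAK2, had calls in both directions, with 5 rises and 4 falls among 39 tested regions in the authors' deposited table. The largest rise lay in intron 1 of 8 (chromosome 2, 167939580 to 167940080, 7.5 kb inside the gene), where libraries held 76.3, 67.8, 22.3 and 4.64 tags in female mice 3, 4, 7 and 8, and 46.9, 34.4, 3.15 and 7.75 tags in male mice 1, 2, 5 and 6. The authors' deposited table gives it 4.80 for IL-33 and 2.22 for vehicle, or a log2 fold change of 2.29 at an SE of 0.45 (adjusted p = 1.50e-05). The 4 falls lie deeper in the same intron, 15.8 to 26.7 kb from the start, at -0.59 to -0.94 in the authors' deposited table. For the fall with the smallest adjusted p (chromosome 2, 167947906 to 167948406), the authors' deposited table gives 5.39 for IL-33 and 6.29 for vehicle, or a log2 fold change of -0.91 at an SE of 0.25 (adjusted p = 0.00262). That region held 123, 87.1, 256 and 158 tags in female mice 3, 4, 7 and 8, and 72.9, 58.4, 136 and 109 tags in male mice 1, 2, 5 and 6. The authors' deposited table has the largest fall, -0.94 at an SE of 0.31 (adjusted p = 0.0209), at 167958766 to 167959266.

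Upstream of Ptpn1, 14 of 15 tested regions lay above 0 in the authors' deposited table, with a median of 1.05, and 4 of them rose. Less than 15 kb inside the gene, 7 of 8 tested regions lay above 0 in the authors' deposited table, with a median of 0.39. From 15 kb inside the gene onwards, 2 of 16 tested regions lay above 0 in the authors' deposited table and the median was -0.20. The 15 kb cut was not planned and lies just before the first called fall, at 15.8 kb, so the contrast depends on where the cut was placed. Whether these parts of the locus differ was not tested. Of the 4 upstream rises, 3 lie 98.0 to 117.0 kb from the Ptpn1 start, at 1.35 to 1.90 in the authors' deposited table. Those at 98.0 and 98.4 kb overlap and share reads. Several long non-coding RNA genes lie between these rises and Ptpn1, and the next protein-coding gene on the far side is Cebpb (chromosome 2, 167688915 to 167690432), which encodes a transcription factor.

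**Figure D4:**
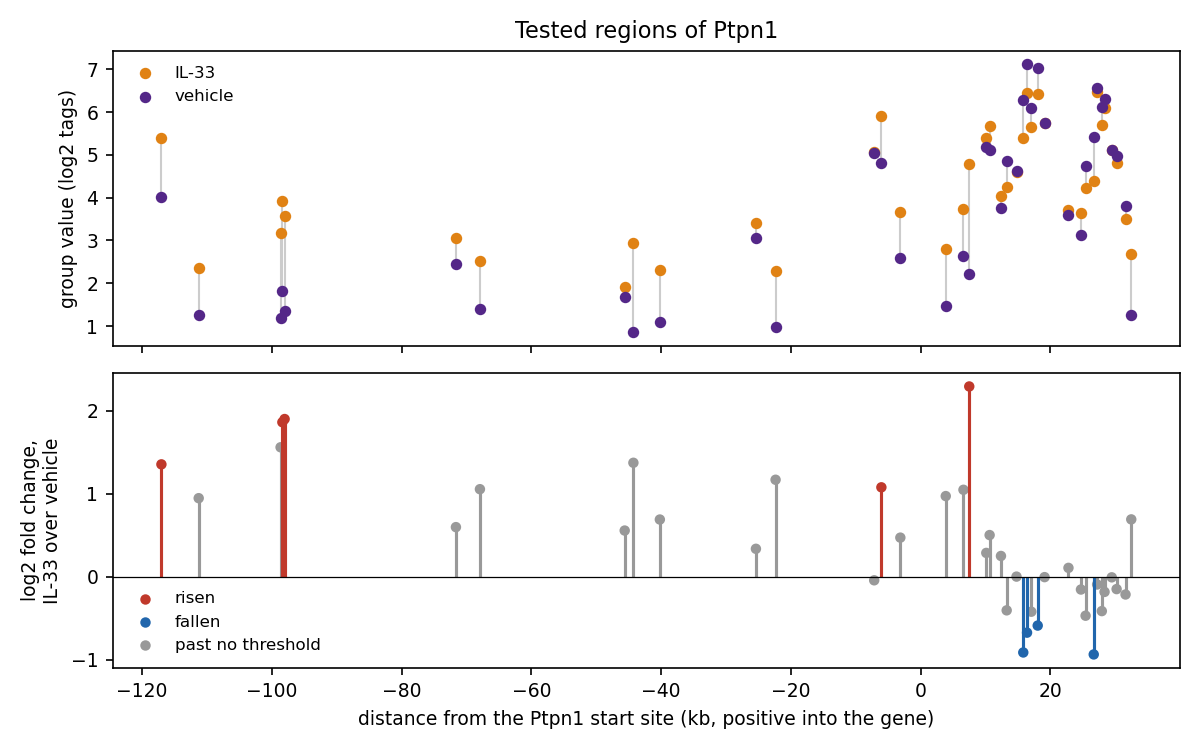
Group values (log2 tags, upper panel) and log2 fold changes of IL-33 over vehicle (lower panel) from the authors' deposited table for the 39 tested Ptpn1 regions, by distance in kb from the start site (positive into the gene). The 5 risen regions lie upstream or 7.5 kb inside the gene at 1.08 to 2.29, and the 4 fallen ones lie 15.8 to 26.7 kb inside it at -0.59 to -0.94.

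Falls without a rise were found at Ptpn14 and Ptpn18. Ptpn14, which encodes a phosphatase with a FERM domain that restrains the coactivator YAP, had 3 falls among 4 tested regions in the authors' deposited table, all in intron 3 of 18. The strongest call (chromosome 1, 189806929 to 189807429) held 44.0, 72.6, 139 and 158 tags in female mice 3, 4, 7 and 8, and 39.9, 47.0, 109 and 114 tags in male mice 1, 2, 5 and 6. Its group values in the authors' deposited table were 4.68 for IL-33 and 6.01 for vehicle, or a log2 fold change of -1.30 at an SE of 0.25 (adjusted p = 8.96e-06). Another of the 3 falls, at 189806505 to 189807005, overlaps this region and shares reads with it. The authors' deposited table has the largest fall, -1.96 at an SE of 0.42 (adjusted p = 8.66e-05), at 189798898 to 189799398 in the same intron. Yet the Ptpn14 start site, 70.9 kb from that region, held no more than 1.94 tags in any library. Ptpn18, a member of the PEST group, had 1 fall among 7 tested regions. The authors' deposited table gives it -0.62 at an SE of 0.22 (adjusted p = 0.0315) in intron 13 of 14, with 5.92 for IL-33 and 6.62 for vehicle. That region held 82.2, 227, 215 and 274 tags in female mice 3, 4, 7 and 8, and 120, 90.5, 180 and 143 tags in male mice 1, 2, 5 and 6.

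No tested region passed the threshold in the authors' deposited table at Ptpra (8 tested), Ptprs (4), Ptpn2 (3), Ptprg (2), Ptprh (2), Ptpn22 (1) and Ptpro (1). The remaining 19 members had no tested region: Ptpn3, Ptpn4, Ptpn5, Ptpn7, Ptpn9, Ptpn12, Ptpn13, Ptpn21, Ptpn23, Ptprb, Ptprcap, Ptprd, Ptpre, Ptprn, Ptprn2, Ptprq, Ptprr, Ptpru and Ptprv. Among these, Ptpre has 4 regions in the authors' deposited table without an adjusted p, with log2 fold changes of -1.12 to 0.09.

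The peak sets named in the table of all regions give a second view of the same libraries. Of the 328 member regions, 96 (29.3%) were listed in the IL-33 peak set only and 21 (6.4%) in the vehicle set only, and 211 (64.3%) in both. Over all regions the shares were 18.8% for IL-33 only, 8.86% for vehicle only and 72.3% for both. Of the 96 member regions in the IL-33 set only, 31 were at Ptprj and 19 at Ptpn1. These genes had 61 and 52 of the 328 member regions. Of the 26 risen member regions in the authors' deposited table, 11 were in the IL-33 set only and 14 in both sets. All 8 fallen ones were in both. Of all called regions in the authors' deposited table, 1489 of 4115 risen ones were in the IL-33 set only and 2645 of 3226 fallen ones were in both. By position, 69.2% of member regions were intronic, beside 46.0% of all regions, and 16.5% were intergenic, beside 31.6%.

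Genes that act with the phosphatases had calls in both directions, to be read beside the 10.2% of all tested regions that rose and the 7.99% that fell in the authors' deposited table. Among Src family and related kinases, the authors' deposited table lists 46 rises (21.7%) and 7 falls (3.3%) over 212 tested regions of 16 genes, with a median log2 fold change of 0.36. For Tec, a kinase related to Btk, the authors' deposited table has a rise of 2.48 at a region 24.7 kb from the TSS (adjusted p = 3.58e-12), and for Src a rise of 1.93 (adjusted p = 1.97e-09). For Csk, the kinase that sets the inhibitory phosphate on Src family kinases, the authors' deposited table has a log2 fold change of -1.68 (adjusted p = 1.03e-09). Among JAK and STAT genes, the authors' deposited table lists 9 rises (20%) and 5 falls (11.1%) over 45 tested regions of 7 genes, with a median of 0.08. Tyk2 had 7 rises of 9 tested regions, up to 3.56, Jak2 had 1 of 3, at 3.36, and Jak1 had 5 falls of 19, down to -2.08, in the authors' deposited table. Adaptors and inositol phosphatases had 4 rises (2.88%) and 8 falls (5.76%) among 139 tested regions in the authors' deposited table, with a median of -0.15. Of these, Inpp5d, which encodes the inositol phosphatase SHIP1, had 1 rise and 5 falls among 42 (best call -0.74) and the adaptor gene Dok1 had 3 rises among 13 (best call 0.88) in the authors' deposited table. Of the 25 listed ligands and partners of receptor phosphatases, only Thbs1, whose product binds CD148, had tested regions, and neither of its 2 passed in the authors' deposited table.

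Between the sexes, 3 member regions were called, all at start sites of Ptpra and Ptprj. Their share was close to that of all tested regions. The comparison used limma on log2(tags + 1) over all 53348 regions with a mean of at least 10 tags, 4 female against 4 male libraries, with Benjamini-Hochberg adjustment. Of the 163 member regions tested, 3 were lower in female libraries (1.84%), where 1.87% of all tested regions were, and 0 were higher, where 0.15% of all were. Of the 163, 17 had an unadjusted limma p under 0.05 in either direction, beside 6790 of all 53348, and edgeR and DESeq2 on the recovered reads also called 0 higher. Within 1000 bp of a TSS, 3 of 37 member regions were lower in female libraries by limma (8.11%), beside 5.64% of all regions there, and 0 were higher, beside 0.0983% of all. Beyond 1000 bp, limma, edgeR and DESeq2 called 0 of 126. An unadjusted limma p under 0.05 was found for 8 of these and for 3561 of all 37079 regions there, of which limma called 80 lower and 64 higher in female libraries. Female and male libraries also carry different dates and index types in the header text, and they differ in depth. Sex and library batch therefore cannot be told apart, no batch holds both sexes, and each sex includes any effect of IL-33.

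At Ptpra, the region 227 bp inside the gene (chromosome 2, 130450255 to 130450755) held 35.2, 38.7, 36.2 and 46.4 tags in female mice 3, 4, 7 and 8, and 140, 116, 148 and 132 tags in male mice 1, 2, 5 and 6. All female libraries lay below all male ones. The log2 difference, female minus male, was -1.75 (SE 0.26, limma adjusted p = 0.00332), with means of 39.1 ± 5.06 tags in female and 134 ± 13.7 tags in male libraries (SD, n = 4 each). It kept its call in 16 of 16 alternatives. An overlapping region at -40 bp, which shares reads with it and covers the CG-rich window printed above, held 41.1, 48.4, 36.2 and 32.5 tags in female mice 3, 4, 7 and 8, and 105, 104, 126 and 130 tags in male mice 1, 2, 5 and 6. Its log2 difference was -1.54 (limma adjusted p = 0.00898), and the call was lost without male mouse 5 (-1.50, adjusted p = 0.0587) and without male mouse 6 (-1.48, adjusted p = 0.0569). Away from the start, no tested Ptpra region passed limma. The 2 with the most tags there, 38.6 and 41.6 kb inside the gene, had log2 differences of 0.28 (adjusted p = 0.738) and 0.23 (adjusted p = 0.763).

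At Ptprj, the region over the outer start (chromosome 2, 90580398 to 90580898) held 41.1, 4.84, 0 and 0 tags in female mice 3, 4, 7 and 8, and 197, 150, 93.3 and 107 tags in male mice 1, 2, 5 and 6. The groups did not overlap, and 16 reads in all came from the female and 472 from the male libraries. The log2 difference was -5.06 (SE 0.97, limma adjusted p = 0.0152), with means of 11.5 ± 19.9 tags in female and 137 ± 46.8 tags in male libraries (SD, n = 4 each). Over 16 alternatives the difference ran from -6.19 to -3.69 and was called in 12. It was not called with DESeq2 (adjusted p = 0.0657) or by limma without male mouse 1 (-4.86, adjusted p = 0.0666), male mouse 2 (-4.99, adjusted p = 0.0601) or male mouse 6 (-5.16, adjusted p = 0.0567). Less than 1 kb away, the region at +876 bp averaged 396 ± 115 tags in female and 308 ± 114 tags in male libraries (SD, n = 4 each), a log2 difference of 0.39 (limma adjusted p = 0.609). At the inner start, the region at +370 bp averaged 39.4 ± 34.8 tags in female and 28.2 ± 7.55 tags in male libraries (SD, n = 4 each; limma adjusted p = 0.988). The start-site region of Ptpn1 at -17 bp, with means of 103 tags in female and 190 tags in male libraries, had a log2 difference of -0.88 that did not pass limma (adjusted p = 0.0903) and was called in 4 of 16 alternatives, with adjusted p-values between 0.00083 and 0.311. The overlapping Ptpn1 region at +462 bp went the other way, with means of 201 tags in female and 141 tags in male libraries. Its log2 difference of 0.51 did not pass limma either (adjusted p = 0.419). Likewise higher in female libraries, the Ptpn1 region 18.1 kb inside the gene held 223, 273, 357 and 357 tags in female mice 3, 4, 7 and 8, and 110, 127, 199 and 196 tags in male mice 1, 2, 5 and 6. The log2 difference of 0.95 there did not pass limma (adjusted p = 0.0966) and was called in 1 of 16 alternatives, without female mouse 3 (1.09, adjusted p = 0.0495). The difference was 0.72 after TMM rescaling (limma adjusted p = 0.2675) and 0.69 with DESeq2 (adjusted p = 0.297).

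Summed over all regions of a gene, none of the 23 members tested passed limma in either direction, where 2.4% of all 13140 genes were lower and 0.228% higher in female libraries. Of the 23, 3 had an unadjusted limma p under 0.05, beside 2147 of all 13140 genes. On the recovered reads, Ptpn4 was lower in female libraries by edgeR (-1.44, adjusted p = 0.0492) and by DESeq2 (-1.43, adjusted p = 0.0225), and Ptpra by DESeq2 (-0.43, adjusted p = 0.0398). Ptpn4, which encodes a FERM-domain phosphatase, summed to 17.4 ± 4.95 tags in female and 42.0 ± 4.88 tags in male libraries (SD, n = 4 each). Without female mouse 3, Ptpn18 was higher in female libraries by limma (0.71, adjusted p = 0.0494). Ptpn1 had the largest sum of all members, with 2661, 3281, 3214 and 3007 tags in female mice 3, 4, 7 and 8, and 2584, 2184, 2457 and 2414 tags in male mice 1, 2, 5 and 6. The log2 difference of the Ptpn1 sums, 0.33, did not pass (limma adjusted p = 0.222). The median difference over all tested genes was 0.12 with the deposited scaling and -0.004 after TMM rescaling, and over all tested regions it was 0.22 and -0.01 with the same scalings.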

How the data were processed

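H3K27ac ChIP-seq libraries of 8 mice were used; the 4 input libraries have no values in the tables used and were not analysed here. Reads were handled with Bowtie2 and HOMER on mm10 (GRCm38), per the submitters' processing notes, with versions not given in the sources used here. Per the file headers, the authors deposited a signal for each region and library, as tags scaled to 10000000 per library, with a peak score and the other annotation values used here, the nearest gene and the distance to its TSS. The scaling in the headers returned whole reads for 100% of values (within 0.01 of a read). The authors' deposited table of IL-33 against vehicle gives log2 fold changes and log2 group values, a mean signal, standard errors and statistics (scores), and p-values and adjusted p-values. The software behind it and the mice in each group are likewise not given. The 2 tables were joined by region, and a positive log2 fold change means higher with IL-33, since the difference of the group values followed it (r = 0.979 across regions, which are not replicates). The highest standard error listed there is 0.678, so errors of regions with few reads in 1 group may be understated. Of the regions, 18.4% overlap another and share reads with it.

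The sexes were compared with limma 3.58.1 (trend) on log2(tags + 1), over all regions with a mean of at least 10 tags, and over sums per gene, in R 4.3.3; edgeR 4.0.16 (quasi-likelihood) and DESeq2 1.42.0 on the recovered reads, other scalings, pseudocounts and minimum levels, and leaving out each library were alternatives. Scripts were tested on simulated data. Every replicate is a separate mouse. Adjusted p-values in this comparison are limma's unless another tool is named. Members and gene lists were chosen with earlier results of these data known. Named with values are members with a called region, by the smallest adjusted p and the largest rise and fall, the 12 highest start-site regions, and the 3 smallest adjusted p per list, of which 1 is not reported here; the Ptpra regions away from the start, Ptprj at +876 and +370 bp, Ptpn1 18.1 kb inside the gene, Ptpre and the members below 10 tags were added after their values were seen. RefSeq windows (GRCm38.p6) matched 28 of 35 members. Tables were handled with pandas 2.3.3 and figures drawn with matplotlib 3.10.9.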

Additional observations from a re-analysis of the deposited data

Results flagged for a closer look

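In the Ptprj region over the outer start, female mouse 3 stood apart from the other female libraries, with 41.08 tags (14 reads) against 4.84, 0 and 0 tags in female mice 4, 7 and 8. Its gap to the next library was 0.882 of the range of the female group, above Dixon's critical value for 4 samples. Chance flags about 1 in 20 groups, and 1 of the 46 groups examined was flagged. Without this mouse the Ptprj difference kept its call.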

How the results depend on the processing

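The count of 26 risen member regions in the authors' deposited table was 16 when regions that overlap another were left out, and 15 without Ptprj, an alternative added after seeing the data. The 8 falls became 4 at an adjusted p under 0.01, 2 with a log2 fold change of at least 1, 5 without overlapping regions and 4 without Ptpn1 (also added after seeing the data). The 7 genes with a rise became 4 without overlapping regions, and the 3 genes with a fall became 1 with a log2 fold change of at least 1. All 34 called regions kept their call when p-values were adjusted over every region with a p-value, 24 kept it at an adjusted p under 0.01, and 24 changed by at least 1 log2 unit. In the sex comparison, 3 member regions were lower in female libraries, 5 after quantile normalisation, 5 with edgeR, 6 with DESeq2 and 1 to 5 when 1 library was left out (1 without male mouse 6, 5 without female mouse 3). Over all regions, the lower calls numbered 998 by limma, 1573 after quantile normalisation, 1470 with edgeR and 1873 with DESeq2. Higher in female libraries were 0 to 1 regions and 0 to 1 genes when 1 library was left out, both 1 only without female mouse 3. By summed tags, 0 genes were lower by limma, 1 with edgeR and 2 with DESeq2. The cause of these shifts was not tested, beyond the regions that an alternative removes by construction. No paired analysis was possible because mouse numbers are not shared between the sexes and the labels do not give the treatment of a mouse. The median region of a female library held 2 to 4 reads, and the size of difference that this depth can show was not tested.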

Other observations

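Phosphatases of other families, listed beside the members, had a median log2 fold change of 0.18 in the authors' deposited table, with 18 rises (10.8%) and 2 falls (1.2%) among 166 tested regions at 16 genes, where 10.2% of all tested regions rose and 7.99% fell. Tensin genes, whose products link integrins to actin and carry a phosphatase-like domain, held most of these rises. For Tns3 the authors' deposited table lists 9 rises and 1 fall over 60 tested regions, the best call at 2.50 with an SE of 0.44 (adjusted p = 7.56e-07), and 4.93 for IL-33 and 2.30 for vehicle. For Tns1 the authors' deposited table lists 4 rises over 22, the best at 1.53 with an SE of 0.31 (adjusted p = 2.54e-05). For Eya3, which encodes a phosphatase of the eyes absent family, the authors' deposited table lists 1 rise over 6 tested regions, of 1.72 with an SE of 0.28 (adjusted p = 8.75e-08).

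The labels give no treatment for any mouse. At the member regions with the largest rises, library values fell into separate clusters, but these regions were picked for their large fold changes. At the strongest Ptprj region, 4 libraries held 113.78, 125.99, 114.43 and 179.04 tags (mice 1, 2, 3 and 4) and 4 held 3.15, 9.69, 5.57 and 9.28 tags (mice 5, 6, 7 and 8). At the strongest Ptprm region, mice 1, 2, 3 and 4 had 43.9, 44.7, 103 and 41.1 tags, and mice 5, 6, 7 and 8 had 2.10, 5.81, 0 and 0 tags. Not every called region was split in this way with the sexes pooled. At the fallen Ptpn1 region 18.1 kb inside the gene, mice 1, 2, 3 and 4 had 110, 127, 223 and 273 tags. Mice 5, 6, 7 and 8 had 199, 196, 357 and 357 tags there. Within each sex, male mice 1 and 2 lay below 5 and 6, and female mice 3 and 4 below 7 and 8. No mouse was assigned to a treatment from these values.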
